A study of Rattus norvegicus with 6 samples.

Results

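The tRNA-Arg fragments of rat spermatozoa are the short RNAs cut from the transfer RNAs that carry arginine. They were taken as the 15 rows of the deposited count tables that name a mature tRNA-Arg whose reads matched the genome. These rows are a whole-tRNA row, a 5′ end row and a 3′ end row for each of the 5 isoacceptors tRNA-Arg-ACG, tRNA-Arg-CCG, tRNA-Arg-CCT, tRNA-Arg-TCG and tRNA-Arg-TCT, named after their anticodons and written Arg-ACG and so on, out of 26561 rows for all small RNAs and 272 rows for all mature tRNAs. Reads counted in an end row are also part of the whole-tRNA row, and reads ending in the CCA tail have rows of their own, which were left out of the 15 and serve here as context.

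Small RNA was sequenced from epididymal sperm of wild type Wistar rats that were 5 months old. From the age of 10 weeks, 3 rats stayed on a standard diet (SD) and 3 received a high-protein diet rich in casein (HPD) for 2 to 3 months, and 1 library was made per rat. The question put to these libraries is whether the diet of the father goes with a change in the small RNAs of sperm. The SD libraries are named CTRL1, CTRL2 and CTRL3 and, as in the tables, HPD2, HPD3 and HPD7 stand for the HPD group. The sperm pellet had been treated with water to burst somatic cells, and a bulk library cannot tell fewer cells of a type from less RNA per cell.

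Transfer RNAs bring amino acids to the ribosome, and those with different anticodons for the same amino acid are called isoacceptors. Arginine has a codon box of its own that begins with CG, read by the Arg-ACG, Arg-CCG and Arg-TCG isoacceptors, and a pair of codons that begin with AG, read by Arg-CCT and Arg-TCT. The A at the start of the anticodon of Arg-ACG is edited to inosine in eukaryotes, which lets this tRNA read several codons. The codons that match the other anticodons base for base are CGG for Arg-CCG, CGA for Arg-TCG, AGG for Arg-CCT and AGA for Arg-TCT. Enzymes such as angiogenin cut mature tRNAs in the anticodon loop, and mature sperm of mammals are known for their load of the resulting 5′ fragments. Short pieces can also come from the inside of the tRNA or from its 3′ side, where the CCA tail is added after transcription. RefSeq names 30 tRNA-Arg genes with these anticodons among 766 rat tRNA genes in the assembly GRCr8, 7 for Arg-ACG, 3 for Arg-CCG, 7 for Arg-CCT, 5 for Arg-TCG and 8 for Arg-TCT, so that a row can pool reads of several gene copies.

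The libraries held between 4140633 and 7919985 reads. Of these, 19426 to 34365 in the SD group and 35079 to 75008 in the HPD group were tRNA-Arg reads matched to the genome, and the 5 whole rows held at least 2239 reads in every library. The tRNA-Arg whole rows were in the lower part by abundance, ranking 32 to 37 from the highest level among the 47 tRNAs with a matched whole row. MicroRNA markers of other cells were lower in HPD, with the summed level of leukocyte miRNAs at 2165 to 2457 CPM (counts scaled to library size) in SD and 1035 to 1117 CPM in HPD, where 4 of 6 rows fell by edgeR. The liver, kidney and gut list was at 631 to 856 CPM in SD and 30.9 to 54.1 CPM in HPD, with 4 of 5 rows lower. The miRNA of endothelium was lower in the test as well (571 to 1200 CPM in SD, 153 to 259 CPM in HPD), as were 2 of 4 rows of smooth muscle and stroma (7362 to 16801 against 4105 to 9805 CPM), 1 of 7 epithelial rows (7496 to 14283 against 5159 to 7731 CPM) and 1 of 3 erythroid rows (206 to 304 against 101 to 123 CPM). Of the striated muscle list, 0 of the 2 rows tested were called by edgeR, at an unadjusted p under 0.05 or by DESeq2 (28.7 to 54.5 against 27.8 to 40.9 CPM). Germ cell miRNAs such as miR-34c summed to 12918 to 15112 CPM in SD and 16502 to 17147 CPM in HPD, and 0 of 8 rows passed the edgeR test (1 at an unadjusted p under 0.05, 0 by DESeq2), so the sperm markers were present in each library. No marker row was at 0 in all libraries. The part of the lists that move with the diet in the tRNA-Arg results was not tested.

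Among the whole-tRNA rows, the Arg-ACG, Arg-TCG and Arg-TCT isoacceptors rose in HPD sperm. The fold changes were 3.13 for Arg-ACG, 2.06 for Arg-TCG and 2.07 for Arg-TCT, while Arg-CCG and Arg-CCT did not pass the test. At an adjusted p of at most 0.05 (edgeR quasi-likelihood test, Benjamini-Hochberg adjustment over all 1858 rows tested), 4 of the 14 member rows tested were called, all of them higher, and the 4 were these whole rows plus the 5′ end of Arg-TCT. The background is 8.61% of all rows called, and 2.21% called higher. The Arg-TCT whole row and its 5′ end row hold largely the same reads, and so do not count as separate results. All 4 also met the thresholds the study used, which add a fold change of 2 and a mean normalised count above 200, against 1.51% of all rows called higher and 4.57% called lower in that way.

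The tRNA-Arg-ACG isoacceptor differed most between the diets. Its normalised counts, as deposited, were 2548, 4640 and 2803 in CTRL1, CTRL2 and CTRL3 and 9095, 12808 and 10191 in HPD2, HPD3 and HPD7. The lowest HPD library therefore stood well above the highest SD library. The mean was 3330 ± 1142 in SD and 10698 ± 1908 in HPD (standard deviation, n = 3 each). The edgeR log2 fold change was 1.65 with a standard error of 0.27 and an adjusted p of 0.0042, and the call held in every alternative and without each library in turn.

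The tRNA-Arg-TCG isoacceptor, which shares the CG codon box with Arg-ACG, had normalised counts of 4525, 5648 and 4042 in the SD libraries and 7188, 11762 and 11006 in the HPD libraries. The groups did not overlap, with HPD2 closest to the SD range. Means were 4738 ± 824 and 9985 ± 2452 (standard deviation, n = 3), and the log2 fold change was 1.04 ± 0.26 (standard error; edgeR adjusted p = 0.033). The call was lost without CTRL1 (adjusted p = 0.085), CTRL3 (0.107), HPD3 (0.191) or HPD7 (0.091), and when libraries were scaled by size alone (0.066).

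The tRNA-Arg-TCT isoacceptor, of which mice have a member made in neurons, had 3068, 5499 and 5225 normalised counts in SD and 7392, 10994 and 10679 in HPD. Each HPD library was again above each SD library. Means were 4598 ± 1332 and 9688 ± 1995 (standard deviation, n = 3), for a log2 fold change of 1.05 ± 0.28 (standard error; edgeR adjusted p = 0.042). This call did not survive the removal of any single library, with adjusted p between 0.053 and 0.208, nor DESeq2 size factors in edgeR (0.059), scaling by library size alone (0.09) or leaving out the end rows nested in whole rows (0.06).

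The tRNA-Arg-CCG isoacceptor, which reads the CGG codon, was measured at 5189, 6342 and 4621 normalised counts in SD and at 7599, 10247 and 10467 in HPD. The groups did not overlap, and the log2 fold change of 0.78 ± 0.24 (standard error) had an adjusted p of 0.082 by edgeR. With DESeq2 the adjusted p was 0.033 (log2 fold change 0.82), and it was 0.025 with upper quartile factors (1.03), 0.029 with no filter on low counts (1.03) and 0.019 among rows with a mean of at least 50 (0.95). In the other alternatives the row was not called, with an adjusted p of up to 0.18 (library size alone). Nor was it called by edgeR without any single library (adjusted p between 0.087 and 0.301).

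The tRNA-Arg-CCT isoacceptor, reader of the AGG codon, was the most abundant of the 5 in SD and had the smallest difference. It had 8182, 6649 and 7626 normalised counts in SD and 9378, 12470 and 8549 in HPD. Its HPD7 value was close to that of CTRL1, and the log2 fold change was 0.39 ± 0.22 (standard error), with an edgeR adjusted p of 0.452. In all 5 isoacceptors each HPD library was above each SD library, where 12.1% of all rows tested had this order. The 5 rows share libraries, and the reads of Arg-CCG, Arg-CCT and Arg-TCG held fractions in 6 of 6 libraries (Arg-TCT in 4, Arg-ACG in 2), which arise where a read fits several annotated RNAs, and which RNAs share these reads was not tested.

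**Figure D1:**
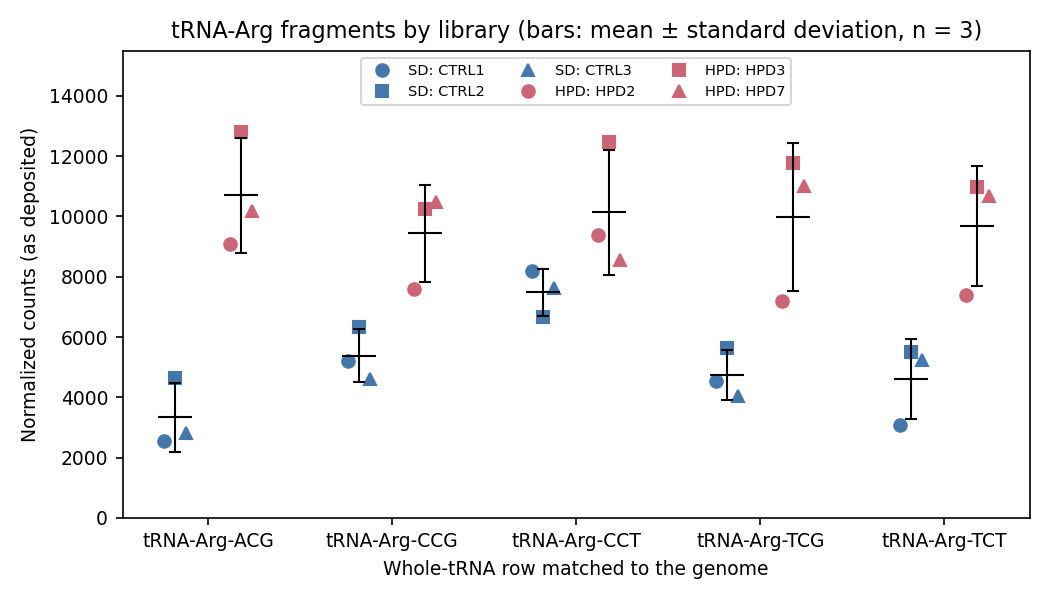
Normalised counts as deposited (vertical axis) of the whole-tRNA row of each tRNA-Arg isoacceptor (horizontal axis), with 1 point per library, SD in blue and HPD in red, and black bars for the mean ± standard deviation (n = 3). The gap between diets is widest for Arg-ACG, where SD libraries lie between 2548 and 4640 and HPD libraries between 9095 and 12808, and narrowest for Arg-CCT, where the highest SD library has 8182 and the lowest HPD library 8549.

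Over all 5 isoacceptors, the median log2 fold change of the whole rows was 1.04, beside 0.53 for the 42 matched whole rows of other tRNAs and 0.03 for all rows tested. Among those 42 rows, 9 rose and 2 fell by the same test, and 24 had all HPD libraries above all SD libraries. The share of tRNA-Arg in all tRNA-derived reads was 0.835%, 1.05% and 0.827% in SD and 1.02%, 1.37% and 1.63% in HPD. HPD2 was below CTRL2, so the groups overlapped, and the means of 0.905% ± 0.128 and 1.34% ± 0.309 (standard deviation, n = 3) differed with an exact two-sided permutation p of 0.2. With 3 libraries against 3, no such test can go below 0.1.

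In the make-up of the tRNA-Arg reads, the SD and HPD libraries did not overlap for Arg-ACG and Arg-CCT. Of the matched tRNA-Arg reads, Arg-ACG took 10.8%, 16.1% and 11.5% in SD and 22.4%, 22% and 20% in HPD. The mean was 12.8% ± 2.88 in SD and 21.5% ± 1.26 in HPD, a difference of 8.63 points. Arg-ACG had the lowest share in each SD library, but among the HPD libraries it had the highest only in HPD3. Arg-CCT took 34.8%, 23.1% and 31.4% in SD and 23.1%, 21.4% and 16.8% in HPD, with means of 29.8% ± 6.01 and 20.4% ± 3.25. CTRL2 and HPD2 were all but equal in this share. For both isoacceptors the exact permutation p was 0.1, the smallest the design allows, and 0.25 after adjustment over the 5 isoacceptors. The separation of Arg-CCT was lost when CCA-end reads were left out (−6.52 points in place of −9.33, exact permutation p = 0.3) or unmatched reads were included (−6.55 points, p = 0.3), while that of Arg-ACG held in both.

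The other isoacceptors kept overlapping shares. Arg-CCG took 22.1%, 22% and 19% of the tRNA-Arg reads in SD and 18.7%, 17.6% and 20.6% in HPD (exact permutation p = 0.2, adjusted 0.333). Arg-TCG was at 19.2%, 19.6% and 16.6% against 17.7%, 20.2% and 21.6% (p = 0.4, adjusted 0.5, exact permutation), and Arg-TCT at 13.1%, 19.1% and 21.5% against 18.2%, 18.9% and 21% (p = 0.9 by the same test, before and after adjustment). In HPD sperm, the mean shares of the 5 isoacceptors thus lay between 18.9% and 21.5%, where in SD sperm they spread from 12.8% to 29.8%. Shares add up to the whole, so a higher share of one lowers the others.

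**Figure D2:**
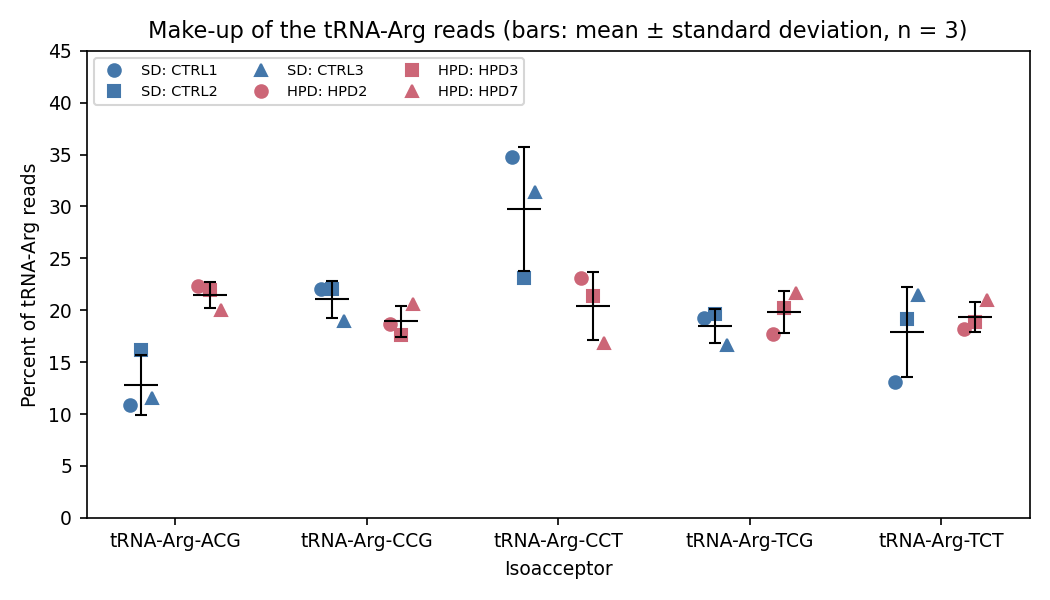
Percent of the matched tRNA-Arg reads of a library (vertical axis) taken by each isoacceptor (horizontal axis), with 1 point per library, SD in blue and HPD in red, and black bars for the mean ± standard deviation (n = 3). The Arg-ACG share lies between 10.8% and 16.1% in SD and between 20% and 22.4% in HPD, and the SD shares of Arg-CCT reach from 23.1% to 34.8%.

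Whether the diet difference itself differed between isoacceptors was tested with the log2 ratio of each pair within a library, which does not depend on library scaling. All 4 ratios with Arg-ACG on top were higher in each HPD library. The 4 ratios share the Arg-ACG reads, and so are not separate results. The ratio of Arg-ACG to Arg-CCT was −1.68, −0.52 and −1.44 in SD and −0.04, 0.04 and 0.25 in HPD, a difference of 1.30. That of Arg-ACG to Arg-CCG differed by 0.91 (mean −0.73 in SD, 0.18 in HPD), that to Arg-TCG by 0.66 (−0.55 and 0.12) and that to Arg-TCT by 0.62 (−0.47 and 0.15). In addition, the ratio of Arg-CCG to Arg-TCG was 0.20, 0.17 and 0.19 in SD and 0.08, −0.20 and −0.07 in HPD, a difference of −0.25 with no overlap, which became −0.07 with overlap when unmatched reads were included (exact permutation p = 0.4). These 5 ratios had the smallest possible exact permutation p of 0.1, adjusted to 0.2 over the 10 pairs, and the other 5 pairs had p between 0.2 and 0.9 (adjusted 0.286 to 0.9).

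The ends from which the reads came separated Arg-TCT from the other isoacceptors. In Arg-TCT, 5′ end reads made up 85.1%, 77.9% and 85.6% of its reads in SD and 92.7%, 93.9% and 95.5% in HPD. In the other isoacceptors most reads lay in no 5′, 3′ or CCA end row, and such reads are called inner reads here. The name stands for this remainder only, since the position of these reads within the tRNA was not measured. Averaged over all libraries, the 5′ share was 88.4% in Arg-TCT, 13.9% in Arg-ACG, 8.72% in Arg-TCG, 6.07% in Arg-CCG and 2.11% in Arg-CCT. Over the 42 other tRNAs the median was 64.7%, and ordered from the highest among the 47 tRNAs Arg-TCT ranked 10, Arg-ACG 34, Arg-TCG 39, Arg-CCG 41 and Arg-CCT 46. Pooled over the isoacceptors, 5′ end reads were 14.5% to 26.4% of the tRNA-Arg reads of a library, and 84.2% to 85.8% of the reads of all other tRNAs. The pooled value gives most weight to abundant tRNAs such as tRNA-Gly-GCC (94%). Low 5′ shares were not particular to tRNA-Arg, as in tRNA-Pro-TGG (3.62%) and tRNA-Met-CAT (5.77%). Of the tRNA-Arg 5′ end reads, Arg-TCT supplied 76.6%, 56.6% and 69.7% in SD and 82.8%, 85.5% and 85.7% in HPD.

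The 5′ share of Arg-TCT was higher in each HPD library, with means of 82.9% ± 4.3 in SD and 94% ± 1.4 in HPD (standard deviation, n = 3). In Arg-ACG it went the other way, from 9.72%, 18.7% and 36.2% in SD to 6.5%, 5.23% and 7.23% in HPD. Here the SD libraries spread widely (21.5% ± 13.5) and the HPD libraries lay close together (6.32% ± 1.01). Arg-CCG had 5.47%, 12.3% and 8.71% in SD and 2.65%, 3.44% and 3.87% in HPD, also with no overlap. For each of these shares the exact permutation p was 0.1, adjusted to 0.136 over the 19 end shares tested.

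In Arg-TCG and Arg-CCT the 5′ shares of the diets overlapped. Arg-TCG had 4.45%, 20.4% and 11.1% in SD and 7.24%, 5.05% and 4.02% in HPD (exact permutation p = 0.3, adjusted 0.356). Arg-CCT had 0.803%, 7.22% and 1% against 1.14%, 1.12% and 1.37% (exact permutation p = 1), so that CTRL2 alone held a high value. The 95% Wilson intervals of single 5′ shares, which cover counting error only, reached at most 1.99 points to either side.

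**Figure D3:**
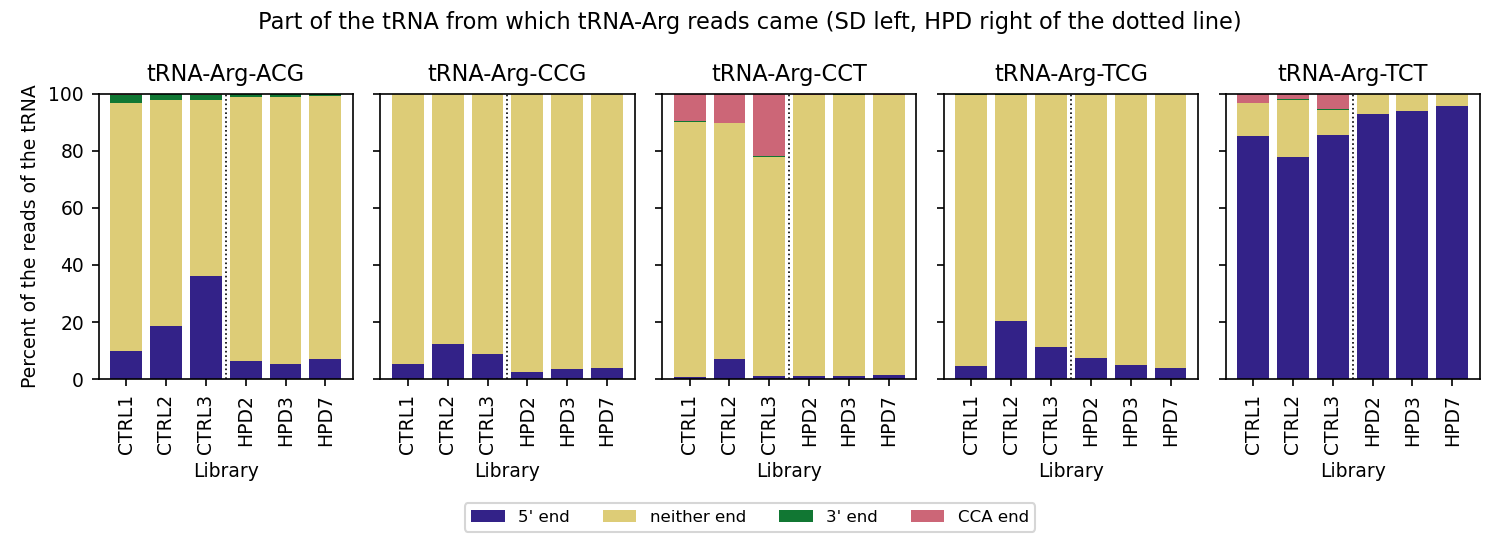
Percent of the reads of each tRNA-Arg isoacceptor matched to the genome (vertical axis) that lay in the 5′ end row, the 3′ end row, the CCA end row or in no end row. Stacked bars show 1 library each (horizontal axis), and unmatched reads are left out. Arg-TCT consists mostly of 5′ end reads (77.9% to 95.5%) and the others mostly of reads in neither end, and the CCA part of Arg-CCT, 9.76% to 22% in SD, is at most 0.494% in HPD.

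Of the 5′ end rows, Arg-TCT alone was called, and it rose 2.37-fold. Its normalised counts were 2610, 4284 and 4473 in SD and 6850, 10322 and 10195 in HPD, with no overlap. Means were 3789 ± 1025 and 9123 ± 1969 (standard deviation, n = 3), and the log2 fold change was 1.24 ± 0.28 (standard error; edgeR adjusted p = 0.018). The call was lost without CTRL1 (adjusted p = 0.053), HPD3 (0.106) or HPD7 (0.054). The 5′ row of Arg-TCT held fractional values in 6 of 6 libraries, so some of its reads fit more than 1 annotated RNA.

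The 5′ row of Arg-ACG did not follow its whole row. It had 248, 867 and 1014 normalised counts in SD and 591, 670 and 737 in HPD, with all HPD libraries inside the SD range, and a log2 fold change of −0.10 ± 0.43 (standard error) with an edgeR adjusted p of 0.953. Arg-CCG had 283, 777 and 402 in SD and 202, 352 and 404 in HPD (log2 −0.62, adjusted p = 0.593). Arg-TCG had 201, 1155 and 448 against 520, 593 and 442 (log2 −0.24, adjusted p = 0.927), and Arg-CCT had 65.7, 480 and 76.4 against 107, 139 and 117 (log2 −0.79, adjusted p = 0.702). In Arg-CCG, Arg-TCG and Arg-CCT the CTRL2 library held the highest 5′ value. Without CTRL2 the log2 fold changes of the Arg-CCT and Arg-TCG 5′ rows turned to 0.80 and 0.72, and that of Arg-CCG shrank to −0.06. The median over the 5 rows was −0.24, beside 0.68 over the 41 tested 5′ rows of other tRNAs, of which 10 rose and 2 fell.

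The inner reads of Arg-ACG, Arg-CCG, Arg-CCT and Arg-TCG were higher in each HPD library, while those of Arg-TCT were not. Of all rows tested, 12.1% had each HPD library above each SD library, as did 24 of the 42 matched whole rows of other tRNAs. This order was not counted for the inner reads of other tRNAs. For Arg-ACG they amounted to 2215, 3669 and 1723 normalised counts in SD and 8382, 11992 and 9370 in HPD, a ratio of means of 3.91. The ratio was 2.3 for Arg-TCG (means 4119 and 9459), 1.86 for Arg-CCG (4885 and 9106) and 1.6 for Arg-CCT (6219 and 9953). Inner reads of Arg-TCT were few, at 354, 1088 and 453 in SD and 528, 660 and 467 in HPD. The rise of the Arg-TCT whole row was thus carried by its 5′ end row, and that of Arg-ACG and Arg-TCG by inner reads.

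With each whole row replaced by its inner reads, a fit added after the data were seen, Arg-ACG and Arg-TCG rose and the other isoacceptors did not pass. In this fit 1.99% of the 1858 rows were called higher. Arg-ACG differed by 1.88 ± 0.30 on the log2 scale (standard error; edgeR adjusted p = 0.0038) and Arg-TCG by 1.11 ± 0.26 (adjusted p = 0.025). Arg-CCG was at 0.81 (adjusted p = 0.067, and 0.021 with DESeq2 or 0.02 with upper quartile factors), Arg-CCT at 0.57 (0.218) and Arg-TCT at −0.28 (0.855). The inner reads of Arg-CCG did not pass with library size alone (edgeR adjusted p = 0.111) or without any single library (0.089 to 0.256). Of the inner reads of the 42 other tRNAs, 7 were called, all higher, with a median of 0.60. The Arg-ACG call held without each library in turn, whereas that of Arg-TCG was lost without any SD library (adjusted p = 0.051 without CTRL1, 0.059 without CTRL2, 0.077 without CTRL3), without HPD3 (0.134) or without HPD7 (0.068).

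As a share of each isoacceptor, inner reads made up 86.9%, 79.1% and 61.5% of Arg-ACG in SD and 92.2%, 93.6% and 91.9% in HPD. Arg-CCT went from 89.3%, 82.4% and 76.9% to 98.2%, 98.4% and 98%, and Arg-CCG from 94.5%, 87.4% and 91.1% to 97.3%, 96.3% and 96%. Arg-TCT showed the opposite order, with 11.5%, 19.8% and 8.67% in SD and 7.14%, 6% and 4.37% in HPD. The diets did not overlap in any of these 4 isoacceptors (exact permutation p = 0.1, adjusted 0.136). With CCA-end reads left out of the total, however, the Arg-CCT difference shrank from 15.3 to 2.09 points and the groups overlapped (exact permutation p = 0.8). Arg-TCG overlapped, at 95.1%, 79.1% and 88.7% against 92.6%, 94.9% and 95.9% (p = 0.3 in the exact permutation test, adjusted 0.356).

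**Figure D4:**
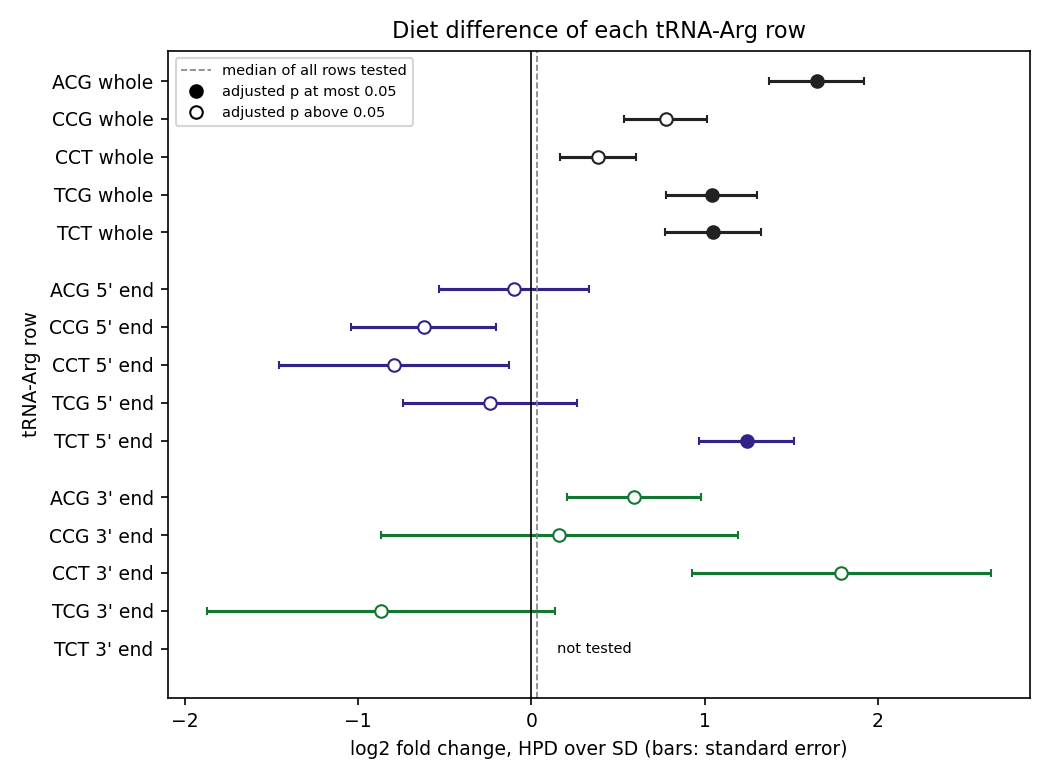
The log2 fold change, HPD over SD, of each tRNA-Arg row (horizontal axis, bars for the standard error of the edgeR fit, 3 libraries per diet), listed as whole, 5′ end and 3′ end rows (vertical axis). Filled points have an adjusted p of at most 0.05, the dashed line is the median of all rows tested, and the called rows are the whole rows of Arg-ACG, Arg-TCG and Arg-TCT and the 5′ end of Arg-TCT. The Arg-TCT 3′ end row was not tested.

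The 3′ end rows held few reads, and of the 4 tested 0 were called by edgeR, 0 had an unadjusted p under 0.05 and 0 were called by DESeq2. Arg-ACG had the most, with 74.6, 102 and 48.8 normalised counts in SD and 123, 146 and 84.1 in HPD (log2 difference 0.59 ± 0.38, edgeR adjusted p = 0.569). Its HPD7 value fell inside the SD range. Arg-CCT had 12, 1 and 3 reads in SD and 15, 19 and 25 in HPD, that is 8.21, 1.30 and 3.76 against 17.4, 16.5 and 17.0 normalised counts, which differed by 1.79 ± 0.86 on the log2 scale (standard error; adjusted p = 0.332). These groups did not overlap, but the SD values rest on at most 12 reads.

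Arg-CCG had 6, 16 and 6 reads in the 3′ row in SD and 1, 29 and 15 in HPD (log2 difference 0.16 ± 1.03, edgeR adjusted p = 0.972), and Arg-TCG had 22, 18 and 1 against 7, 5 and 14 (log2 difference −0.87, adjusted p = 0.817). The Arg-TCT 3′ row, with 7, 18 and 7.33 estimated reads in SD and 2, 10 and 7 in HPD, did not reach the minimum count and was not tested. As a share of the reads of Arg-ACG, 3′ end reads were 2.93%, 2.19% and 1.74% in SD and 1.35%, 1.14% and 0.826% in HPD, lower in each HPD library (exact permutation p = 0.1, adjusted 0.136). This share was also lower in each HPD library in Arg-TCT (means 0.253% in SD, 0.052% in HPD). In Arg-CCT it was higher in each HPD library (means 0.056% and 0.172%). Both had the same exact permutation p and adjusted p, and both rest on few reads. The shares of Arg-CCG and Arg-TCG overlapped (exact permutation p = 0.6 and 0.4). The median log2 fold change of the 4 rows tested was 0.38, beside 0.82 over 36 rows of other tRNAs.

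The CCA end rows matched to the genome, which lie outside the 15, were lower in HPD for the 2 isoacceptors with enough reads. The Arg-CCT row had 799, 689 and 1679 normalised counts in SD and 46.4, 42.6 and 37.3 in HPD (log2 difference −4.68 ± 0.41, edgeR adjusted p = 2e-04). The Arg-TCT row fell as well, by −4.21 ± 0.63 on the log2 scale (adjusted p = 0.0027). The Arg-ACG row held 15, 2 and 14 reads in SD and 0 in each HPD library, and the Arg-TCG row 7, 2 and 6 against 0, 1 and 0, and neither was tested. Arg-CCG had no matched CCA row. Matched CCA rows of other tRNAs shared this direction, with 20 of 32 called, all lower, and a median of −1.61. Of all rows tested, 6.4% were called lower. Unmatched CCA rows differed less, with a median log2 fold change of −0.59 over the 5 of tRNA-Arg and 0.20 over the 42 of other tRNAs. Of those 42, 1 was called higher and 2 lower. Matched CCA reads were 9.76%, 10.4% and 22% of the matched Arg-CCT reads in SD and 0.494%, 0.342% and 0.436% in HPD. The matched Arg-CCT whole row thus joins a part that was lower to an inner part that was higher in HPD. The unmatched CCA row of Arg-CCT did not share the drop, with 540, 171 and 595 reads in SD and 262, 562 and 417 in HPD (log2 difference −0.36 ± 0.42, edgeR adjusted p = 0.817). With CCA reads taken out of the whole rows, also chosen after the data were seen, Arg-CCT stood at a log2 difference of 0.58 (edgeR adjusted p = 0.183), and the calls of Arg-ACG, Arg-TCG and Arg-TCT held.

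Reads assigned to tRNA-Arg that did not match the genome did not show the rise. These rows held another mix of fragments than the matched rows, with many CCA end reads. In CTRL1 such reads were 1116 of 1152 in Arg-CCG, 2188 of 2408 in Arg-TCG and 540 of 614 in Arg-CCT. They were 772 of 1078 in Arg-TCT and 669 of 1266 in Arg-ACG. Of the 5 unmatched whole rows 0 were called by edgeR (2 at an unadjusted p under 0.05) and 0 by DESeq2, 2 (Arg-TCG and Arg-TCT) were lower in each HPD library (13% of all rows tested had this order), and the median log2 fold change was −0.64. Arg-ACG had 866, 1476 and 933 normalised counts in SD and 1167, 1382 and 1014 in HPD, which overlapped. The unmatched CCA row of Arg-TCT fell (log2 difference −1.11 ± 0.30, edgeR adjusted p = 0.044), and it was the 1 called of 5 such rows. Its reads are also part of the unmatched whole row of Arg-TCT, so the 2 are not separate results.

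Across the 6 libraries, the pattern of each whole row was set beside those of the other tRNAs by the mean absolute difference of centred log2 CPM. Within tRNA-Arg, Arg-CCG and Arg-TCG were closest (0.13), followed by Arg-TCG and Arg-TCT (0.18), and Arg-ACG and Arg-CCT were farthest apart (0.66). Among tRNAs of other amino acids, the nearest to Arg-ACG were tRNA-Lys-TTT (0.29) and tRNA-Leu-TAA (0.35). For Arg-CCG they were tRNA-Glu-TTC (0.10) and the initiator tRNA-iMet-CAT (0.14), and for Arg-CCT tRNA-Ser-TGA (0.12) and tRNA-Ser-AGA (0.13). For Arg-TCG they were tRNA-Gln-TTG (0.17) and tRNA-Leu-TAA (0.19), and for Arg-TCT tRNA-iMet-CAT (0.18) and tRNA-Thr-TGT (0.24). The pattern of Arg-ACG was thus farther from its nearest match than that of any other tRNA-Arg. The measure grows with the size of the diet difference, which was largest in Arg-ACG, so this is not a separate result.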

How the data were processed

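Sperm RNA of 3 SD and 3 HPD rats was sequenced as small RNA. The authors trimmed the reads, discarded those under 15 nucleotides and annotated the rest with SPORTS on rat database files (Rnor_6.0; the processing notes also name mm9, Bowtie and DESeq). The deposited estimated counts hold fractions where a read fits several RNAs. The second table holds signal values, which the authors obtained as counts cut to whole numbers and divided by a DESeq2 size factor per library; 100% of its values came out as whole reads (within 1e-06), and edgeR on those reads called 164 of 1825 rows. Column names give the diet, and they do not tie libraries to numbered samples.

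Here the estimated counts were rounded and fitted with edgeR 4.0.16 (R 4.3.3; quasi-likelihood test, TMM, filterByExpr at 10 reads per library and 15 in total) on all rows, with Benjamini-Hochberg adjustment. Library size was the sum of non-nested rows. A row holding the snoRNA total (0.293% to 0.536% of reads in SD, 1.25% to 1.45% in HPD) stayed out. The script was tested on simulated data. Inner reads are the whole row less its end rows. End rows never exceeded their whole row (0 of 564 cases). Shares and ratios were compared by exact two-sided permutation of the diet labels (20 arrangements, scipy 1.17.1). Wilson intervals (95%) cover counting error only, since reads without molecular identifiers are not independent molecules. Alternatives were DESeq2 1.42.0, limma 3.58.1 (pseudocount 1 or 0.5), other scalings and filters, and leaving out each library. Each of the 15 tRNA-Arg rows is reported. Some of the unmatched tRNA-Arg rows are given only through medians, counts of calls or CTRL1 reads. Also reported are the matched CCA end rows, the other tRNAs as counts and, per isoacceptor, the 2 other tRNAs of most similar pattern. The members and the marker lists were chosen with earlier results of these data known. RefSeq (GRCr8) gave gene names only, and its coordinates were not used.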

Additional observations from a re-analysis of the deposited data

Results flagged for a closer look

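The unmatched CCA end row of tRNA-Arg-ACG was in each HPD library above each SD library, while the unmatched CCA end rows of Arg-TCG and Arg-TCT were lower in each HPD library. Its normalised counts were 458, 496 and 551 in SD and 709, 898 and 643 in HPD, a log2 fold change of 0.54 (adjusted p = 0.299 by edgeR), and the difference between the rows was not tested.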

How the results depend on the processing

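The whole row of Arg-ACG was called in every alternative. With libraries scaled by size alone, 1 whole row was called (3 as reported), also at the thresholds of the study, where fitting tRNA fragments on their own likewise left 1. Without each library in turn, whole rows called numbered 1 to 2, by both rules, and 5′ rows called 0 to 1. Signs turned only in values that did not pass the test. The 5′ log2 fold change of Arg-ACG became 0.13 with upper quartile factors, 0.18 with no filter, 0.035 among rows with a mean of at least 50 and 0.14 with limma at either pseudocount. That of Arg-TCG became 0.035, 0.0099 and 0.13 with upper quartile factors, no filter and limma (both pseudocounts), the inner reads of Arg-TCT 0.033 with upper quartile factors, and the 3′ row of Arg-CCG −0.048 with tRNA fragments alone and −0.19 and −0.26 with limma. The Arg-TCG share difference became −1.07 points with unmatched reads included. Without each library in turn, log2 fold changes ranged from −0.48 to 0.23 (Arg-ACG 5′), −0.83 to 1.11 (Arg-CCG 3′), −1.22 to 0.80 (Arg-CCT 5′), −0.64 to 0.72 (Arg-TCG 5′) and −0.54 to 0.45 (Arg-TCT inner reads), the Arg-CCT 5′ share difference from −2.90 to 0.31 points, the Arg-TCT share difference from −0.95 to 3.26 points and the Arg-TCG to Arg-TCT log2 ratio difference from −0.27 to 0.20. The cause was not tested. The median of all rows moved from 0.03 to 0.28 with upper quartile factors, 0.68 with no filter, 0.53 with DESeq2 and −0.09 with library size alone, and to 0.18 and 0.20 with limma, so fold changes under these are to be read against it. Of 1858 rows, 160 were called, against 82 without HPD2, 77 without HPD3 and 94 of 1690 without nested rows. More were called with DESeq2 (211) and among 556 rows with a mean of at least 50 (223). Fitted alone, 105 of 263 tRNA fragment rows were called, where the fit on all rows called 34 of 262 higher and 32 lower. No paired analysis was possible because the libraries come from different rats and no label ties them by litter, cage or day. Each group has 3 rats, and 3′ rows other than Arg-ACG hold at most 29 reads.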
